A study of Mus musculus with 8 samples.

Results

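The 10 transcription factor genes described here are Fos, Fosl2, Jun, Junb, Jund, Batf, Irf4, Irf8, Egr1 and Egr2, which encode AP-1, BATF, IRF and EGR factors. They were picked out of the tables by gene symbol, from a list drawn up with earlier results of these data known, and all 10 were found among the 22609 genes of the count tables. The RNA came from liver CD8 T cells of C57BL/6J mice, male and 6 weeks old, that had received an agonist antibody against CD137 on day 0, 3 and 6, with livers taken on day 8. CD137 is a costimulatory receptor of activated T cells. The CD11c+ subset (4 libraries) was CD11c+KLRG1+CD127- and the CD11c- subset (4 libraries) was CD11c-KLRG1+CD127-. Both subsets shared the antibody treatment and a sort gate that took live cells positive for CD45, TCRβ and CD8α and negative for MHCII, NK1.1 and CD4, so no library here came from an untreated mouse. The labels do not say whether the libraries came from separate mice, so the p-values reflect only how far these samples scattered, and that scatter may be technical. CD11c is an integrin chain found mostly on myeloid cells and also on some activated T cells.

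AP-1 is a dimer of leucine zipper proteins, classically a Fos-family protein (Fos, Fosl2) with a Jun-family protein (Jun, Junb, Jund). Antigen receptor and costimulatory signals reach these genes through MAP kinases, and Fos, Jun, Egr1 and Egr2 belong to the immediate-early genes, whose transcripts appear within minutes of a signal and also of cell handling. Batf lacks a transactivation domain, pairs with Jun proteins and, with Irf4 or Irf8, binds composite DNA elements in activated T cells. Irf4 follows the strength of the antigen receptor signal in CD8 T cells. Egr1 and Egr2 are zinc finger factors, and Egr2 has been linked to restraint of T cell responses. The comparison of CD11c+ with CD11c- libraries asks whether this set of signal-responsive factors was transcribed at different levels in the sorted subsets.

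Libraries held between 5090345 and 7093163 gene reads, and the number of genes with a read ranged from 10482 to 12581. Itgax, the gene of CD11c, averaged 243 CPM in CD11c+ libraries and 10.1 CPM in CD11c- libraries (CPM, gene counts brought to a common depth with TMM scaling), and was 4.60 higher on the log2 scale in CD11c+ libraries (edgeR quasi-likelihood test, adjusted p = 0.000136). The 8 genes of the CD8 T cell gate summed to 8254 to 9823 CPM in CD11c+ libraries and 8172 to 8903 CPM in CD11c- libraries, so the genes of the gate were abundant in all libraries. Of the marker lists for other cells, the monocyte and macrophage genes summed to 93.9 to 370 CPM in CD11c+ libraries and 94.7 to 203 CPM in CD11c- libraries. The neutrophil genes summed to 2.27 to 266 CPM in CD11c+ libraries and 7.003 to 103 CPM in CD11c- libraries, with Mpo and Elane at 0 reads in every library. The NK cell and ILC1 genes summed to 11.5 to 80.4 CPM in CD11c+ libraries and 6.31 to 37.2 CPM in CD11c- libraries. CD11c+ replicate 3 was the highest library for these 3 lists. Without it the log2 fold change of CD11c+ minus CD11c- was 0.51 for Egr2, 0.14 for Jund, 0.14 for Fos and 0.10 for Irf8, against 0.26, 0.27, 0.04 and 0.02 with it. The part of these other cells in the results was not tested. B cell, dendritic cell, CD4 T cell, hepatocyte and endothelial or stellate cell genes each summed to under 20 CPM in every library. In bulk RNA of sorted cells, fewer cells that express a gene and less RNA per cell cannot be told apart.

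None of the 10 factor genes passed the adjusted threshold for a difference between the subsets. In the edgeR quasi-likelihood test of CD11c+ minus CD11c-, adjusted by Benjamini-Hochberg over 10073 tested genes, 0 of 10 passed the threshold of 0.05, against 0.0496% of all tested genes. DESeq2 and limma voom also called 0 of the 10. At an unadjusted p under 0.05 the edgeR test called 1 of 10, Batf, against 4.7% of all tested genes. In 0 of 10 genes did the 4 libraries of one subset all lie above the 4 of the other, which was so for 3.44% of all tested genes. The log2 fold change was above 0 for 8 of the 10, against 51.7% of all tested genes, and its median was 0.26, against 0.01 over all tested genes.

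**Figure D1:**
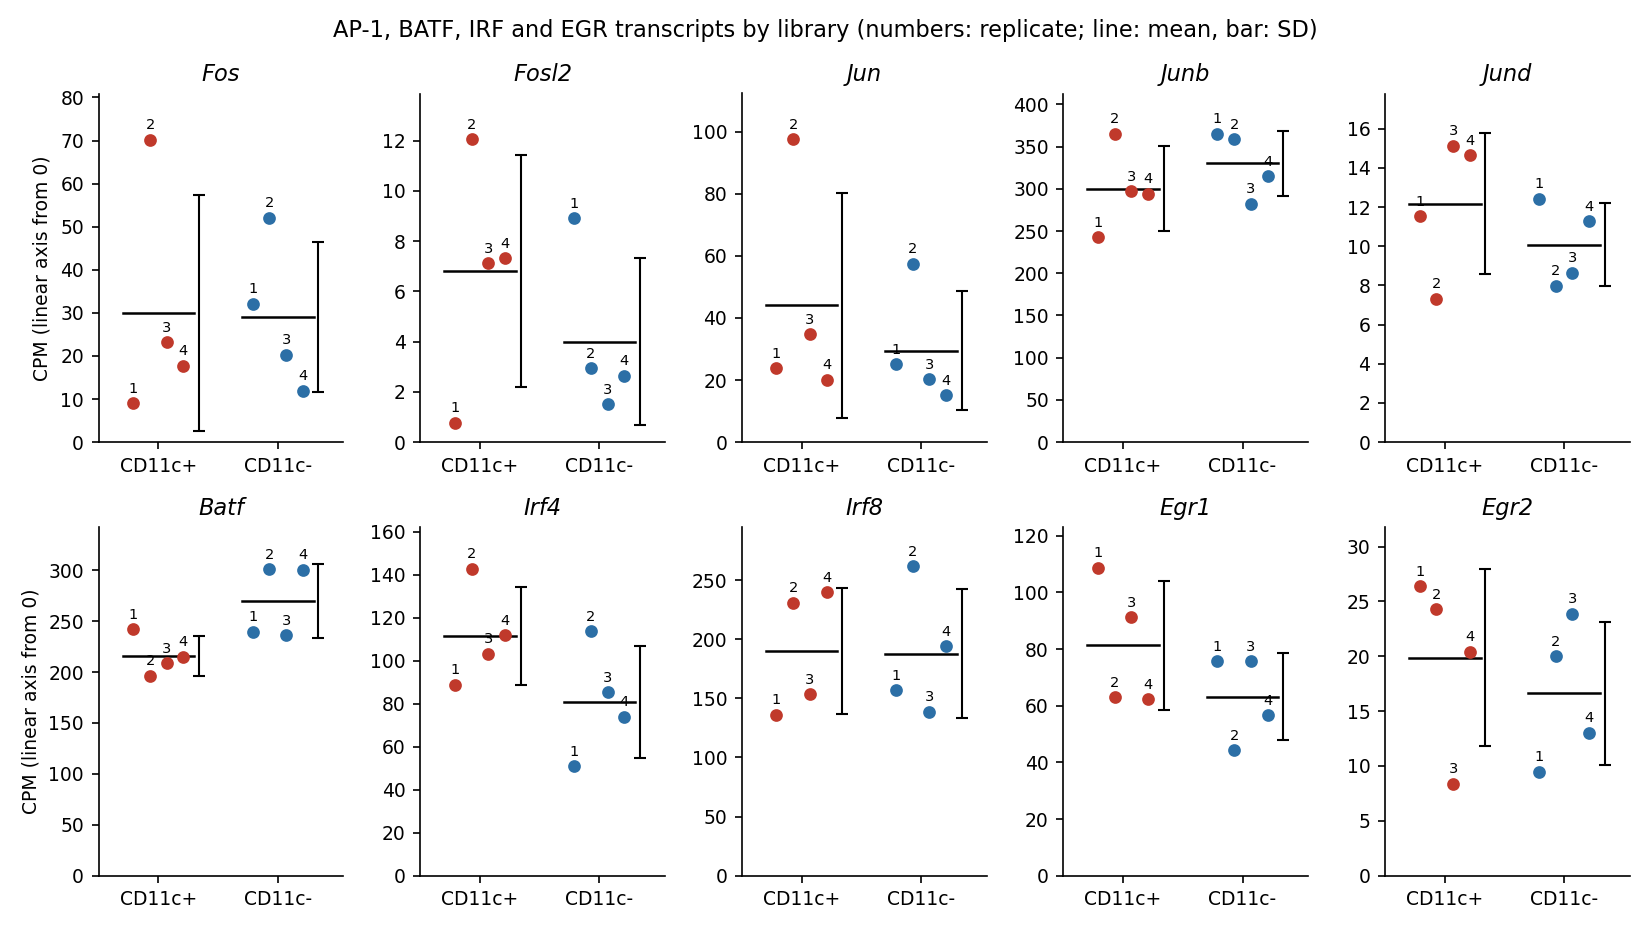
Level of each of the 10 factor genes in every library, in CPM on a linear axis. The 4 CD11c+ libraries stand left of the 4 CD11c- libraries in each panel, with lines for the subset means and bars for the SD. Numbers mark the replicate. The subsets overlapped for all 10 genes, and replicate 2 of both subsets was highest for Fos and Jun.

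Fos and Jun, the archetypal AP-1 pair, varied more within each subset than between them. Fos was at 8.99, 70.2, 23.2 and 17.8 CPM in CD11c+ replicates 1 to 4, and at 32.1, 52.1, 20.3 and 12.0 CPM in CD11c- replicates 1 to 4. Replicate 2 was the highest library of each subset, and the subsets overlapped over most of their range. The means were 30.0 ± 27.4 CPM in CD11c+ libraries and 29.1 ± 17.4 CPM in CD11c- libraries (SD, n = 4 each), a log2 fold change of 0.04 (95% interval -1.19 to 1.27). That interval covers Fos levels from 0.439-fold to 2.41-fold in CD11c+ relative to CD11c- libraries, and without CD11c+ replicate 2 the log2 fold change was -0.82. Jun was at 23.9, 97.6, 34.7 and 20.1 CPM in CD11c+ libraries, and at 25.1, 57.4, 20.3 and 15.2 CPM in CD11c- libraries. Here too replicate 2 stood highest in both subsets, and the other 3 libraries of each subset lay between 15.2 and 34.7 CPM. The Jun log2 fold change was 0.57 (95% interval -0.54 to 1.69), and it was -0.18 without CD11c+ replicate 2 and 1.12 without CD11c- replicate 2. Its adjusted p in the edgeR quasi-likelihood test was 0.991.

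The spread of Fos and Jun was wide among genes of like level. Over the 8 libraries the highest CPM was 7.80 times the lowest for Fos and 6.44 times for Jun. Of 3568 tested genes with a mean CPM within 2-fold of that of Fos, 97.5% had a smaller SD of log2 CPM within subsets, and for Jun this held for 97.6% of 3747 genes. Behind these values stood 46 to 402 reads of Fos and 86 to 559 reads of Jun per library.

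Junb was the steadiest member by the ratio of its highest to its lowest library. It was at 243, 365, 297 and 294 CPM in CD11c+ libraries, and at 365, 358, 283 and 315 CPM in CD11c- libraries. The subsets covered nearly the same range, and that ratio was 1.504. The log2 fold change was -0.14 (95% interval -0.44 to 0.16), so a difference beyond 0.737-fold or 1.12-fold lay outside the interval. Jund, a Jun protein that is present in many resting cells, was at 11.5, 7.33, 15.1 and 14.7 CPM in CD11c+ libraries, and at 12.4, 7.98, 8.65 and 11.3 CPM in CD11c- libraries. Replicate 2 was the lowest library of each subset for Jund, the reverse of Fos and Jun. The Jund log2 fold change was 0.27 (95% interval -0.56 to 1.11).

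The promoters of Fos, Jun and Junb are shown because the levels of these genes gave the highest pairwise correlations of the set, with that of Egr2 as an EGR gene beside them. The sequences are the 250 bases before the RefSeq gene start, taken for Egr2 from the middle one of 5 windows, on build GRCm38.p6, written 5′ to 3′ on the gene's strand, and capitals mark the motifs found. Fos lies at chr12:85473640-85473889 on the plus strand, Jun at chr4:95052223-95052472 on the minus strand, Junb at chr8:84978749-84978998 on the minus strand and Egr2 at chr10:67537619-67537868 on the plus strand.
Fos: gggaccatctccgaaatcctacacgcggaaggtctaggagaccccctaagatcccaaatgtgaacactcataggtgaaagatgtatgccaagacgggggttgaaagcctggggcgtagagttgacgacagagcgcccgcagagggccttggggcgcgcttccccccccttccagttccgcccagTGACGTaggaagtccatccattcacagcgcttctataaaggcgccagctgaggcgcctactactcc
Jun: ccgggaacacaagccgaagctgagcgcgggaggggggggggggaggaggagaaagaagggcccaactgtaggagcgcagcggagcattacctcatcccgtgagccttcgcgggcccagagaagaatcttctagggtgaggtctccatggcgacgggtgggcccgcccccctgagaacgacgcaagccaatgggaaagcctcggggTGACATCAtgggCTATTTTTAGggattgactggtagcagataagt
Junb: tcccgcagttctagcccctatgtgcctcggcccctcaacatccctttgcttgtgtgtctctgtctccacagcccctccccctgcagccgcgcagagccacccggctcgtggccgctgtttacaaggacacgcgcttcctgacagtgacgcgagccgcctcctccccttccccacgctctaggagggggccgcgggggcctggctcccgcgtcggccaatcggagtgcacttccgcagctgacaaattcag
Egr2: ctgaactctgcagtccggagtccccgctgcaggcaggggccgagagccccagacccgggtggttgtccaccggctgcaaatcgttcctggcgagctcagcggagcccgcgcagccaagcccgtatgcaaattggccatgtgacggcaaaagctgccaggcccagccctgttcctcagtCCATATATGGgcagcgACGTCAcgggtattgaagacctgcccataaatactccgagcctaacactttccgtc
The Fos window holds the core of a cyclic AMP response element, TGACGT, at 66 to 61 bases before the start. The Jun window holds TGACATCA at 45 to 38 bases before the start, followed by a MEF2 box at 33 to 24 bases. The Egr2 window holds a CArG box, the sequence read by serum response factor, at 72 to 63 bases before the start, and TGACGT on the opposite strand at 56 to 51 bases. None of the 8 motifs searched was found in the Junb window.

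Windows from 250 bases before to 50 bases after the start were matched by symbol for 9 of the 10 genes, all but Egr1, and both strands were searched in 32851 RefSeq windows. The 9 genes had 14 windows, and a gene counted if any of its windows held the motif. Percentages are of single windows, so they are not on the same footing as the counts of genes. TGACGT, which is also part of the full element TGACGTCA, was in windows of 3 of the 9 genes (Batf, Egr2 and Fos) and in 7.51% of all windows. The full element (1.79% of all windows) and the AP-1 site TGANTCA (7.81%) were in windows of 0 of the 9 genes. TGACATCA (3.62% of all windows) and the MEF2 box (3.19%) were found for Jun, and the CArG box (1.63%) for Egr2. The EGR motif GCGNGGGCG (5.55%) and the IRF motif, GAAA then any 2 bases then GAAA (3.44%), were found for Fosl2. These are matches of letters and not measured binding. Fos and Batf lie on either side of Jdp2 on chromosome 12 in the RefSeq annotation.

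Fosl2, the other Fos-family gene of the set, was the rarest and the most variable. It was at 0.782, 12.0, 7.13 and 7.33 CPM in CD11c+ libraries, and at 8.91, 2.94, 1.505 and 2.64 CPM in CD11c- libraries. A single library in each subset went against its fellows, as CD11c+ replicate 1 was the lowest of all 8 and CD11c- replicate 1 the second highest. The gene had 4 to 69 reads per library, and the log2 fold change of 0.77 had a 95% interval of -0.95 to 2.50. Without both libraries numbered 1 it was 1.88 (edgeR quasi-likelihood test, unadjusted p = 0.00609, adjusted p = 0.971).

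Batf, the partner of Jun proteins, had the smallest p of the 10, and its lower mean in CD11c+ libraries passed 0.05 only before adjustment. It was at 242, 196, 208 and 215 CPM in CD11c+ libraries, and at 240, 301, 236 and 301 CPM in CD11c- libraries. CD11c+ replicate 1 reached into the CD11c- range, and the other 3 CD11c+ libraries lay below all 4 CD11c- libraries. The means were 216 ± 19.4 CPM in CD11c+ libraries and 270 ± 36.4 CPM in CD11c- libraries (SD, n = 4 each). The log2 fold change was -0.32 ± 0.13 (SE), with an unadjusted p of 0.0269 and an adjusted p of 0.991 in the edgeR quasi-likelihood test.

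The IRF genes, whose proteins join Batf on composite elements, behaved differently from each other. Irf4 was at 88.8, 143, 103 and 112 CPM in CD11c+ libraries, and at 50.9, 114, 85.4 and 74.0 CPM in CD11c- libraries. All but one of the CD11c- libraries lay below every CD11c+ library, the exception being CD11c- replicate 2. The means were 112 ± 22.9 CPM in CD11c+ libraries and 81.0 ± 26.1 CPM in CD11c- libraries (SD, n = 4 each), a log2 fold change of 0.46 ± 0.23 (SE; edgeR quasi-likelihood test, unadjusted p = 0.0687, adjusted p = 0.991). Irf8 was at 136, 231, 153 and 240 CPM in CD11c+ libraries, and at 157, 262, 139 and 194 CPM in CD11c- libraries. Its subsets overlapped almost fully, with a log2 fold change of 0.02 (95% interval -0.47 to 0.51). Within subsets it varied more than most genes of like level, 94.6% of 1968 of which had a smaller SD. Irf8 is also known from B cells and dendritic cells, whose marker genes each summed to under 20 CPM in every library, and from monocytes and macrophages, whose marker genes summed to 93.9 to 370 CPM in CD11c+ libraries and 94.7 to 203 CPM in CD11c- libraries. The part of such cells in the Irf8 level was not tested. As a description made after these values were seen, the ratio of Irf4 to Batf CPM was 0.366 to 0.727 in CD11c+ libraries and 0.212 to 0.377 in CD11c- libraries. The ratio of CD11c+ replicate 1 fell inside the CD11c- range.

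For both EGR genes the subsets overlapped. Egr1 was at 109, 63.0, 91.2 and 62.4 CPM in CD11c+ libraries, and at 75.8, 44.4, 75.8 and 56.7 CPM in CD11c- libraries. Replicates 1 and 3 were higher than replicates 2 and 4 in each subset. The log2 fold change of Egr1 was 0.36 (95% interval -0.15 to 0.88). Egr2 was at 26.4, 24.3, 8.37 and 20.4 CPM in CD11c+ libraries, and at 9.47, 20.03, 23.9 and 13.0 CPM in CD11c- libraries. The order of replicates differed between the subsets, as replicate 3 was the lowest CD11c+ library and the highest CD11c- library, and the log2 fold change was 0.26 (95% interval -0.62 to 1.14).

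**Figure D2:**
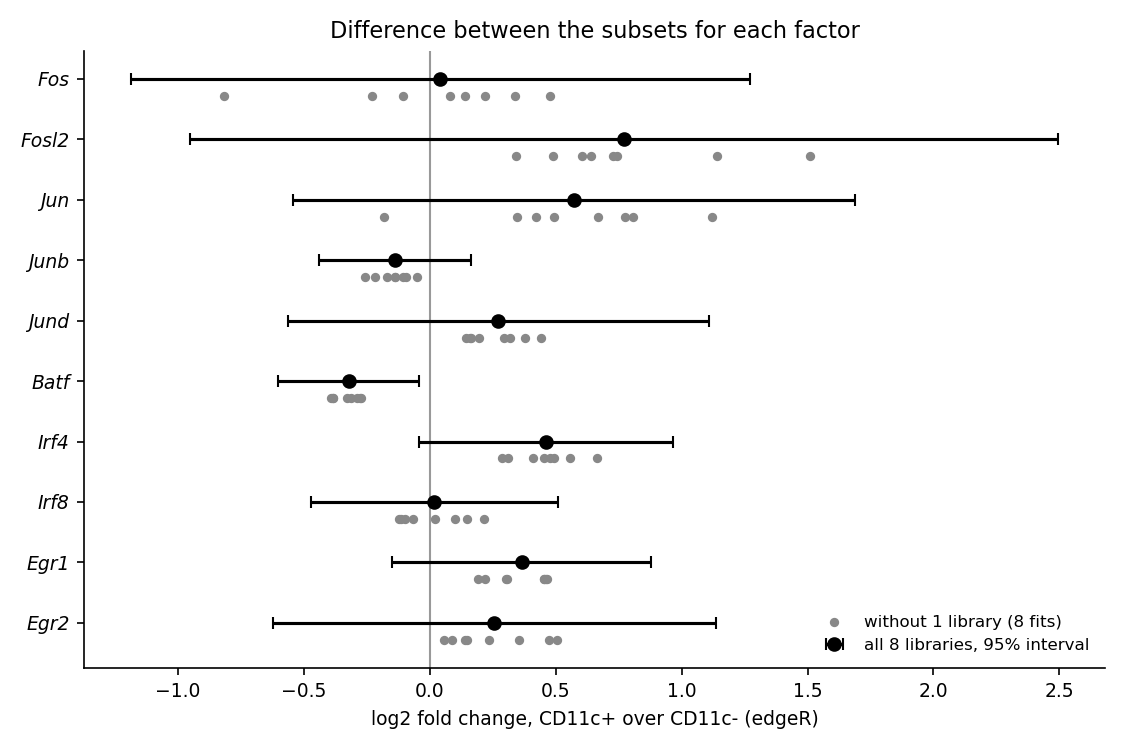
Log2 fold change of each factor gene, CD11c+ minus CD11c-, with its 95% interval from the edgeR fit (bars) and the values with each library left out in turn (small points). Batf is the only gene whose interval, -0.60 to -0.04, lies on one side of 0, and the points of Fos, Jun and Irf8 fall on both sides.

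The width of the intervals differed by member. The narrowest belonged to Batf and Junb, at 0.659-fold to 0.970-fold and 0.737-fold to 1.12-fold in CD11c+ relative to CD11c- libraries. Fosl2 had the widest, from 0.516-fold to 5.64-fold. Without CD11c- replicate 2, every CD11c+ library was above every CD11c- library for Irf4. Without CD11c+ replicate 1, every CD11c+ library was below every CD11c- library for Batf. In both cases 1 library decided whether the subsets overlapped. The share of all tested genes that separate with 1 library left out was not counted, so no difference is read from this.

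To compare levels between the genes, CPM were divided by exon length in kilobases (GENCODE M21 exons merged per gene, 9068 of 10073 tested genes matched by symbol). The annotation used for counting is not given, and merged exons can be longer than the transcripts present. The order of the genes depends on these lengths. On this scale of CPM per kb, Batf averaged 173 ± 28.1 (SD, n = 8) and Junb 137 ± 19.4, above 97.1% and 96.1% of the genes with a length. Batf was above Junb in 7 of 8 libraries, and Junb was above Irf8 (26.8 ± 7.04 CPM per kb) in 8 of 8. Irf8 was above Irf4 (19.6 ± 5.71 CPM per kb) in 8 of 8 libraries. Further down, neighbouring genes were not separated in every library. Irf4 was above Egr1 (16.1 ± 4.55 CPM per kb) in 6 of 8 libraries and Egr1 was above Fos (12.6 ± 9.04 CPM per kb) in 6 of 8. Fos was above Jun (11.5 ± 8.75 CPM per kb) in 5 of 8 and Jun was above Jund (6.67 ± 1.77 CPM per kb) in 6 of 8. Jund was above Egr2 (5.37 ± 2.06 CPM per kb) in 4 of 8, and Fosl2 was lowest in every library (0.559 ± 0.416 CPM per kb). Junb therefore made up most of the Jun-family level, at 86.5% ± 3.26 in CD11c+ libraries and 90.5% ± 2.23 in CD11c- libraries of the summed CPM per kb of Jun, Junb and Jund (SD, n = 4 each). The 2 sets of shares overlapped, with the lowest share, 81.9%, in CD11c+ replicate 2, the library highest in Jun.

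Whether the factors moved together across libraries was examined in all 45 pairs of the 10 genes, as Pearson correlations of log2(CPM + 1) over 8 libraries with exact permutation p-values (two-sided, 40320 orders). These p-values treat the 8 libraries as exchangeable, although same-numbered libraries deviated together over all tested genes at r of 0.079 to 0.19. After Benjamini-Hochberg adjustment over the 45 pairs, 0 passed 0.05 and the lowest adjusted p was 0.138. At an unadjusted p under 0.05 there were 3 pairs by Pearson's r and 4 by Spearman's rho. Correlations were above 0 in 23 pairs and below 0 in 22.

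The 3 pairs were Fos with Jun, Fos with Junb, and Irf8 with Egr1. Fos and Jun had r = 0.86 (exact permutation p = 0.00923) and rho = 0.83, but r = 0.45 once the libraries numbered 2 were left out, which were the 2 farthest from the median of Fos. Their relation therefore rests on those libraries. Among the promoters shown, those of Fos and Jun hold TGACGT and TGACATCA, and that of Junb holds no motif searched. The part of these motifs in the correlations was not tested. Fos and Junb had r = 0.84 (exact permutation p = 0.00918) and rho = 0.81, with r = 0.75 without the same libraries. Irf8 and Egr1 ran in opposite directions, with r = -0.86 (exact permutation p = 0.00432), rho = -0.90, and r = -0.78 without the 2 libraries farthest from the median of Irf8. Taken as deviations from each subset's mean, r was 0.93 for Fos with Jun, 0.88 for Fos with Junb and -0.99 for Irf8 with Egr1. The adjusted p was 0.138 for each of the 3 pairs. Batf and Irf4, partners on DNA, had r = -0.36 (exact permutation p = 0.384, adjusted p = 0.665).

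**Figure D3:**
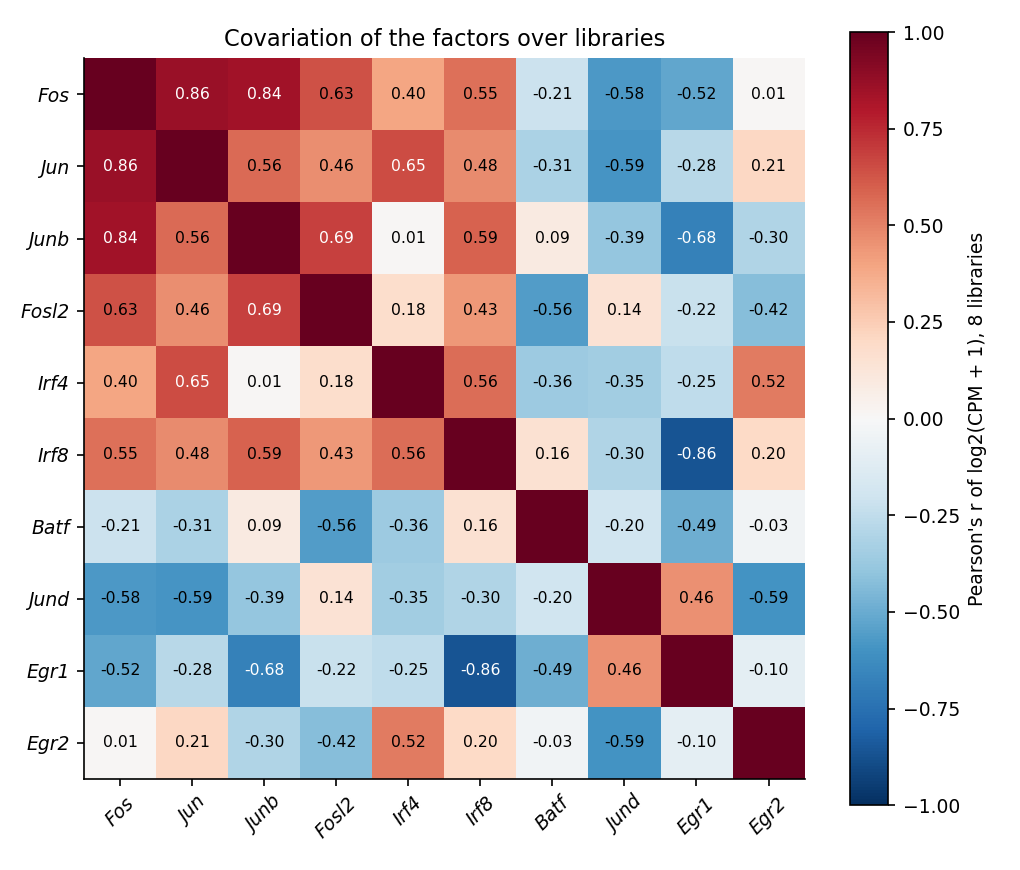
Pearson r of log2(CPM + 1) over 8 libraries for the 45 pairs of the 10 factor genes, from -1 to 1. Fos with Jun (0.86) and Fos with Junb (0.84) are the highest pairs and Irf8 with Egr1 (-0.86) the lowest, and none passed adjustment over the 45 pairs.

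**Figure D4:**
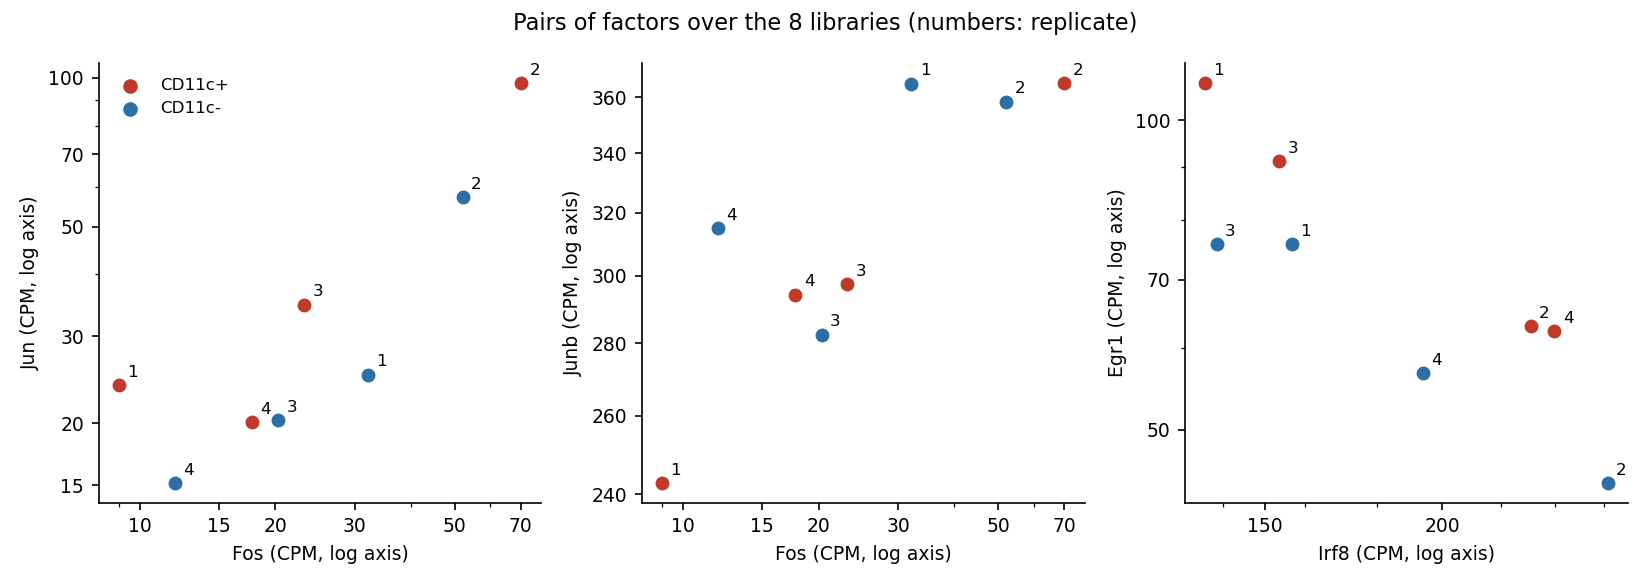
CPM, on log axes, of Jun against Fos, Junb against Fos, and Egr1 against Irf8, with 1 point per library marked by subset and replicate number. The libraries numbered 2 stand at the upper right for Fos with Jun, and Egr1 is lower where Irf8 is higher in both subsets.

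Irf8 and Egr1 were also set against sequencing depth, and Irf8 passed. It correlated with gene reads per library at r = 0.87 (exact permutation p = 0.00104, adjusted p = 0.0104 over 10 genes and 0.0417 over all 40 relations of this kind) and rho = 0.95. Without the 2 libraries farthest from the median depth it was 0.77. Egr1 correlated with gene reads at r = -0.82 (exact permutation p = 0.0101, adjusted p = 0.0503 over 10 genes and 0.147 over 40) and rho = -0.90 (adjusted p = 0.0228 over 10 genes, exact permutation), and at -0.71 without the 2 farthest libraries. Here too the permutations took no account of the replicate numbers. How many of all tested genes follow gene reads as closely was not counted. CPM are already scaled to depth, and the part of depth in the Irf8 and Egr1 relation was not tested. Only Irf8 of the 10 passed 0.05 against gene reads by Pearson's r, and 0 of 10 did against the number of detected genes (lowest adjusted p = 0.839, exact permutation).

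Immediate-early genes respond to cell handling as well as to signals, so the factors were set against the mean log2(CPM + 1) of 27 other immediate-early and early response genes in the same libraries. Correlations lay between -0.64 and 0.48, and 0 of 10 passed (lowest adjusted p = 0.367, exact permutation). The lowest was that of Jun (r = -0.64, rho = -0.76, unadjusted p = 0.0367). That mean ranged only from 6.05 to 6.19 over the libraries, and was 6.07 in CD11c+ replicate 2 and 6.05 in CD11c- replicate 2. By the summed CPM of all 29 genes of the list, the highest library was CD11c+ replicate 2, at 3179 CPM. CD11c- libraries summed to 2714 to 3080 CPM. The part of cell handling in the Fos and Jun levels was not tested. The early gene most like both Fos and Jun was Dusp1, which encodes a MAP kinase phosphatase. It was at 59.8, 167, 69.7 and 70.5 CPM in CD11c+ libraries, and at 67.8, 148, 83.5 and 85.3 CPM in CD11c- libraries. Dusp1 was highest in replicate 2 of both subsets, and r was 0.81 with Fos and 0.81 with Jun over 8 libraries, as a description of a gene chosen after its values were seen. Against 10 heat shock genes, 0 of 10 factors passed (lowest adjusted p = 0.111, exact permutation), with r from -0.37 to 0.84. Irf4 had the highest r of 0.84 (unadjusted p = 0.0111, rho = 0.79). By the summed CPM of the 10 heat shock genes, the highest library was CD11c+ replicate 4, at 4979 CPM. The heat shock mean was highest in replicate 2 of each subset, at 7.10 in CD11c+ and 6.87 in CD11c- libraries. Its r was 0.50 with Fos and 0.57 with Jun, and 0.81 and 0.87 without both libraries numbered 1, the farthest from its median. The part of a stress response in the Fos and Jun levels was not tested.

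For each factor, the genes with the most similar pattern over the 8 libraries were taken from 6595 tested genes of at least 20 mean CPM, by Pearson r of log2(CPM + 1). They are given as a description with no test, and the 8 libraries are shared by every correlation. The highest r among 6595 candidates over 8 libraries can be this high for unrelated genes, so no relation is read from them. For Fos they included Adam19 and Cd55 (r of 0.95 and 0.95), and for Jun they included Spcs2 and Tmem129 (0.99 and 0.93). For Junb they were D19Ertd386e, Ttf1 and Pigu (0.97, 0.96 and 0.96). Jund was most like Smap1 (0.97), Fosl2 like Slc16a6 (0.94) and Batf like Ppie (0.98). Irf4 was most like Hccs (0.99), Irf8 like Tnfrsf4 (0.97), which encodes the costimulatory receptor OX40, and Egr2 like Mynn (0.96). Egr1 was most like Klf6 (0.97), a zinc finger factor that is itself an early response gene and was at 214 to 275 CPM.

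The other genes of the pathway were read from 7 lists, of which 108 of 122 genes were tested. In the edgeR quasi-likelihood test 0 of 108 passed the adjusted threshold, against 0.0496% of all tested genes. At an unadjusted p under 0.05 there were 6, against 4.7% of all tested genes. DESeq2 called 2 and limma voom called 2, in each case among the target genes. Over all genes, DESeq2 called 36 and limma voom 19. The median log2 fold change of all tested genes was 0.01. Upstream, the list of MAP kinase, SRF and CREB genes had 27 of 27 genes tested, with 0 past the threshold and a median log2 fold change of -0.01. Rps6ka1, a kinase that acts below the MAP kinases, was at 487 ± 47.4 CPM in CD11c+ libraries and 492 ± 23.0 CPM in CD11c- libraries (SD, n = 4 each). Its subsets overlapped.

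Of 18 other AP-1 and leucine zipper partners, 11 were tested, 0 had an unadjusted p under 0.05, and the median log2 fold change was -0.07. Atf4, a factor of the stress response, was the most abundant at 167 ± 10.1 CPM in CD11c+ libraries and 162 ± 21.4 CPM in CD11c- libraries (SD, n = 4 each). Atf2, a partner of Jun, was at 66.9 ± 15.1 CPM in CD11c+ libraries and 70.2 ± 22.8 CPM in CD11c- libraries. Batf3, the paralog of Batf, was at 0 to 0.156 CPM.

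Of 14 other IRF factors and IRF partners, 14 were tested and 0 passed, with 1 at an unadjusted p under 0.05 and a median log2 fold change of 0.01. That gene was Irf7, an interferon-induced factor, at 110 ± 23.4 CPM in CD11c+ libraries and 143 ± 20.1 CPM in CD11c- libraries, with overlapping subsets (edgeR quasi-likelihood test, unadjusted p = 0.0461, adjusted p = 0.991). Ikzf1 and Ikzf3 encode the lymphoid factors Ikaros and Aiolos, which can pair with IRF proteins on DNA. Ikzf1 was at 704 ± 76.8 CPM in CD11c+ libraries and 761 ± 70.9 CPM in CD11c- libraries, and Ikzf3 at 408 ± 29.1 CPM in CD11c+ libraries and 419 ± 12.2 CPM in CD11c- libraries.

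Of the other EGR factors, Egr3 was at 0 to 1.25 CPM and Egr4 had 0 reads in every library, so neither was tested. Nab1 and Nab2, corepressors that bind EGR proteins, were tested and 0 of 2 passed. Nab1 was at 67.4 ± 15.9 CPM in CD11c+ libraries and 73.2 ± 6.55 CPM in CD11c- libraries (SD, n = 4 each). Nab2, itself induced by EGR factors, was at 30.7 ± 8.12 CPM in CD11c+ libraries and 26.4 ± 9.76 CPM in CD11c- libraries.

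Among 29 other immediate-early and early response genes, 27 were tested and 0 passed. The 27 had a median log2 fold change of 0.10, against 0.01 over all tested genes. At an unadjusted p under 0.05 there were 2, against 4.7% of all tested genes. Both were lower in CD11c+ libraries with no overlap, and 3.44% of all tested genes had no overlap in either direction. Socs3, an inhibitor of cytokine signalling, was at 30.1 ± 3.21 CPM in CD11c+ libraries and 44.6 ± 5.12 CPM in CD11c- libraries (SD, n = 4 each; edgeR quasi-likelihood test, unadjusted p = 0.0153, adjusted p = 0.990). Ier3, a stress-inducible survival gene, was at 22.1 ± 5.44 CPM in CD11c+ libraries and 35.6 ± 5.10 CPM in CD11c- libraries (unadjusted p = 0.0192, adjusted p = 0.990). The most abundant of the list were Nfkbia and Tnfaip3, feedback inhibitors of NF-kB, with overlapping subsets. Nfkbia was at 358 ± 49.6 CPM in CD11c+ libraries and 397 ± 61.5 CPM in CD11c- libraries, and Tnfaip3 at 265 ± 28.2 CPM in CD11c+ libraries and 297 ± 70.8 CPM in CD11c- libraries. Of 10 heat shock genes 0 had an unadjusted p under 0.05, and Hsp90ab1, a cytosolic chaperone, was at 2994 ± 406 CPM in CD11c+ libraries and 2815 ± 449 CPM in CD11c- libraries.

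Downstream, 20 T cell genes known as targets of AP-1, BATF with IRF4, or EGR factors had 17 tested members. Of these, 0 passed the threshold and 2 had an unadjusted p under 0.05, against 4.7% of all tested genes. The median log2 fold change of the 17 was 0.23, against 0.01 over all tested genes. Gzmb, the cytotoxic protease granzyme B, was at 1908 ± 389 CPM in CD11c+ libraries and 1064 ± 151 CPM in CD11c- libraries (SD, n = 4 each), a log2 fold change of 0.84 ± 0.14 (SE). Tbx21, which encodes the effector factor T-bet, was at 349 ± 26.3 CPM in CD11c+ libraries and 227 ± 19.0 CPM in CD11c- libraries, a log2 fold change of 0.62 ± 0.11 (SE). The subsets did not overlap for either gene, which was so for 3.44% of all tested genes. The adjusted p in the edgeR quasi-likelihood test was 0.0637 for Gzmb and 0.0850 for Tbx21. The most abundant targets beside Gzmb included Dgka, a diacylglycerol kinase that damps receptor signalling, at 499 ± 58.8 CPM in CD11c+ libraries and 552 ± 84.5 CPM in CD11c- libraries. Tnfrsf9, which encodes CD137 itself, was at 220 to 491 CPM in CD11c+ libraries and 274 to 501 CPM in CD11c- libraries. Il2, the classical AP-1 target of T cells, was at 0 to 2.41 CPM and was not tested.

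**Figure D5:**
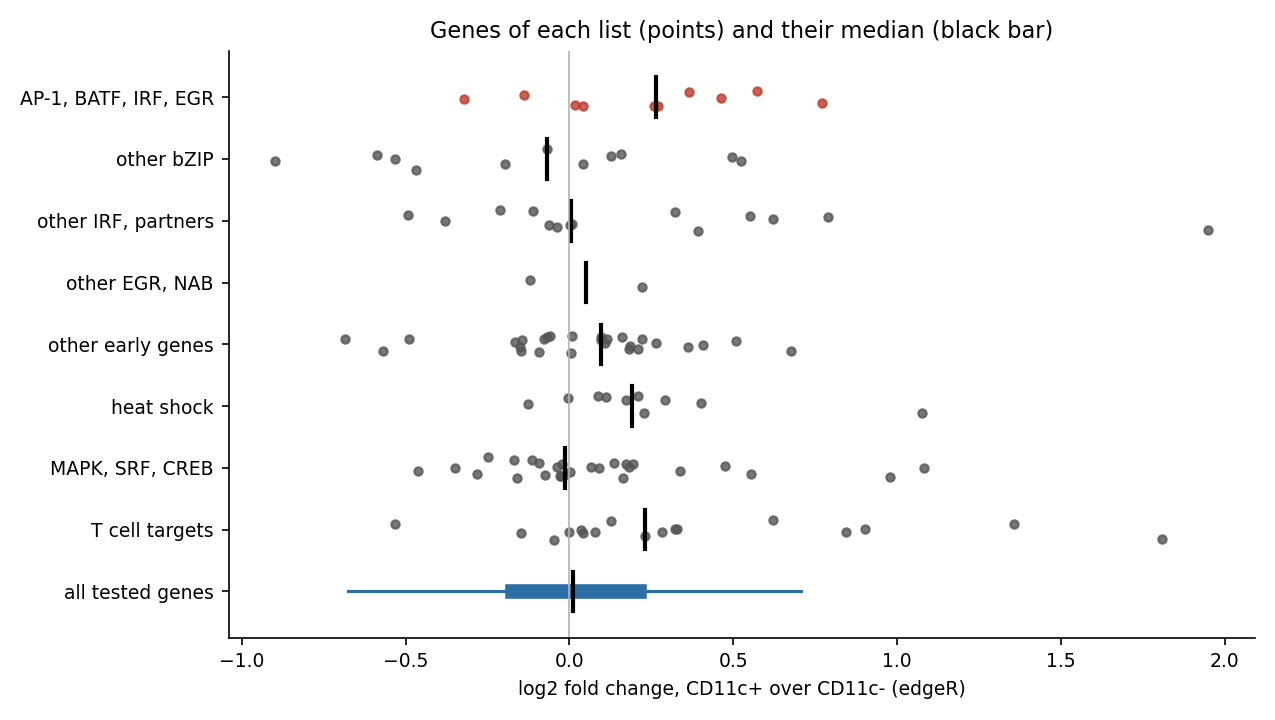
Log2 fold change, CD11c+ minus CD11c-, of the tested genes of the factor set and of each pathway list (points), beside bars for the 5th to 95th and 25th to 75th percentiles of all 10073 tested genes. Most points lie inside the range of all genes, -0.67 to 0.71 from the 5th to the 95th percentile, and Gzmb and Tbx21 are the targets with the smallest p.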

How the data were processed

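RNA was polyA-selected, amplified by a modified SMART-seq2 protocol, made into Nextera XT libraries and sequenced as 50-base single reads, per the labels' protocols. The authors deposited raw read counts per gene symbol for each of the 8 libraries, with no normalization. The submitters' processing notes name bcl2fastq, TopHat2 2.0.8b, HTSeq and, as genome, mouse mm9. Which annotation and strand setting were used is not given in the sources used here, so reads of a gene and of an overlapping or antisense gene cannot be told apart. The 5 summary rows of each file stayed out of library sizes and tests. Reads in no annotated gene were 63.1% to 67.1% of uniquely placed reads, and alignments at more than 1 place were 50.3% to 53.6% of the sum of all rows.

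The test was edgeR's quasi-likelihood test (edgeR 4.0.16, R 4.3.3; filterByExpr, TMM, glmQLFit, glmQLFTest) of CD11c+ minus CD11c-. P-values were adjusted by Benjamini-Hochberg over the 10073 genes tested, at a threshold of 0.05. All 10 factor genes passed the filter on low counts. Standard errors were derived from the F statistic, and 95% intervals come from them. Intervals cover the spread between libraries as well as counting error. Correlations used log2(CPM + 1). Before averaging, each pair of libraries in a subset was set side by side in a chi-square test on genes of 10 or more reads. All pairs differed by more than read sampling (9.43 or more per degree of freedom), so no libraries were merged and each counted as 1 sample. Repeat libraries of the same mouse may differ by more than read sampling too. The check therefore cannot show that the samples are independent. Gene lengths came from GENCODE M21 and promoter windows from RefSeq on GRCm38.p6, by symbol.

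The edgeR test and the permutation p-values were tested on simulated data with known answers. The alternatives tried were no filter, a filter of 5 CPM in 4 or more libraries, RLE factors, scaling by library size alone, a replicate block, edgeR with legacy=FALSE, DESeq2 1.42.0, limma 3.58.1 voom with quality weights, and leaving out each library or each replicate number. For correlations they were an offset of 5, deviations from the subset means and Spearman's rho. Leaving out both libraries numbered 2 from the correlations was added after seeing the data. The members and gene lists were chosen with earlier results of these data known. Named genes are all members and, per list, up to 2 per direction with the smallest unadjusted p under 0.05 and the 2 of highest mean CPM. Batf3, Egr3, Egr4, Il2, Tnfrsf9 and Dusp1 were named after their values were seen. Like patterns were the 3 genes of highest r. Some genes that these rules name are not reported here.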

Additional observations from a re-analysis of the deposited data

Results flagged for a closer look

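Across the 8 libraries, 58 groups of 4 values were examined for a library far from the others, and 1 was found, where chance gives about 1 in 20. Hspa8, a constitutive heat shock chaperone, was at 261 CPM in CD11c+ replicate 1, against 358 CPM in the nearest of the other 3 CD11c+ libraries. Of the 20 groups of the 10 factor genes, 0 stood out in this way.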

How the results depend on the processing

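The count of factor genes past the threshold was 0 under all 20 alternative fits, with a lowest adjusted p of 0.579 (Batf, DESeq2). Of 200 log2 fold changes, 182 kept their direction, and Fosl2, Junb, Jund, Batf, Irf4 and Egr1 kept it in every fit. Batf ranged from -0.44 to -0.23 and had an unadjusted p under 0.05 in 15 of 20 fits, Irf4 in 4. Directions turned for Fos with the replicate block (-0.11), edgeR legacy=FALSE (-0.00086) and limma voom (-0.33), and over left-out libraries or numbers it ranged from -0.82 to 0.48. With limma voom, Jun was -0.0063 and Egr2 -0.0075. Over left-out libraries or numbers, Jun ranged from -0.18 to 1.12, Irf8 from -0.12 to 0.21 and Egr2 from -0.11 to 0.73. The cause of these turns was not tested. Over all tested genes, 5 passed, against 12 with no filter, 8 with at least 5 CPM in 4 libraries, 13 with the replicate block, 11 with legacy=FALSE, 36 with DESeq2, 19 with limma voom and 1 to 5 over left-out libraries or numbers. Of the list genes 0 passed, against 1 with no filter, with the stricter filter, with the replicate block and with legacy=FALSE, and 2 each with DESeq2 and limma voom, all among the target genes. Factor genes without overlap numbered 0, and 0 to 1 over left-out libraries. Pairs and relations to early genes stayed at 0 past the threshold under 13 alternatives each. For the pairs, deviations from the subset means and leaving out both libraries numbered 2 allowed few permutations. A single pair could not pass adjustment there, so the 0 in those settings carries no weight. As deviations, Irf8 with Egr1 had an adjusted p of 0.156 (exact permutation within subsets).

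Same-numbered libraries deviated together at r of 0.079, 0.19, 0.13 and 0.19 for numbers 1 to 4, and every library correlated best with its own number. As the labels do not say what a number stands for, this is a hint from the data only. With the replicate block 0 factor genes passed. Irf4 then had the smallest p of the 10, with a log2 fold change of 0.50 (edgeR quasi-likelihood test, unadjusted p = 0.00985, adjusted p = 0.684), and Batf had an unadjusted p of 0.0343. Within each of the 4 numbers Irf4 and Egr1 were higher in the CD11c+ than in the CD11c- library. The share of all tested genes with the same direction in all 4 numbers was not counted, so no difference is read from this. Fosl2 had 4 to 69 reads per library and the other members 42 or more. How much of its interval came from depth and how much from the spread between libraries was not tested.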
